A study of Mus musculus with 10 samples.

Results

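The peaks described here come from DamID-seq of ZFP266 in mouse embryonic fibroblasts (MEFs) and hold a B1 SINE close to the family consensus. A peak was taken when it shared at least 1 bp with a B1 SINE whose best blastn alignment to the B1 consensus, read by eye from a figure of the study, was at least 80 bp long and at least 95% identical, and 474 of the 15119 peaks met this rule. They held 479 such near-consensus elements. All samples were MEFs of strain 129, and 10 samples were made. In 5 of them the cells were nucleofected with a plasmid for Dam only, and in the other 5 with a plasmid for Dam fused to ZFP266. Both plasmids carry mOrange as the first reading frame behind the PGK promoter, so that Dam is translated only when ribosomes reinitiate behind it. Cells were sorted 48 h after nucleofection, for mOrange by the sample labels and for GFP by the methods, and this difference could not be settled. The list of peaks compares the groups over all samples at once. It therefore gives no value or depth for any sample, and the spread between replicates cannot be stated.

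B1 SINEs are short repeats that arose from the RNA of the signal recognition particle and were copied through the mouse genome by the reverse transcriptase of LINE elements. A young B1 copy is close to the consensus because it has had little time to gather mutations, and it carries an internal promoter for RNA polymerase III, whose B box lies inside the element. KRAB zinc finger proteins such as ZFP266 recognise DNA with their zinc fingers, and many recruit TRIM28 through the KRAB domain to keep repeats silent. In DamID, the Dam methylase marks GATC sites around the place where the fusion protein sits, and the Dam only samples show which sites are marked without it.

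Near-consensus B1 SINEs were met by a peak about as often as the class just below them. GRCm38 held 281421 B1 SINEs (at least 80 bp and 70% identical), of which 7156 (2.54%) shared a base with a peak. Of the 14815 near-consensus elements, 479 (3.23%, Wilson 95% interval 2.96 to 3.53%) did so. The share was 3.28% (3.17 to 3.39%) for elements of 90 to 95% identity, 2.28% (2.14 to 2.42%) from 85 to 90%, 2.15% (2.03 to 2.28%) from 80 to 85% and 1.93% (1.83 to 2.02%) under 80%. The intervals of the near-consensus class and of the class from 90 to 95% overlap, whereas those of the 3 classes below 90% lie lower. All intervals cover counting error only. Right at the limit there was no step, with 3.51% (3.22 to 3.82%) of the elements from 94 to 95% identity in a peak and 3.46% (3.13 to 3.83%) of those from 95 to 96%. The median identity was 95.6% in peaks, where the highest was 98.3%, and 95.7% outside, close to the limit that the rule sets. The upper quartile was 95.9% in peaks and 96.2% outside, where the highest was 100%. From 96 to 97% identity 79 of 3133 elements lay in a peak (2.52%, 2.03 to 3.13%), from 97 to 98% 36 of 1110 (3.24%, 2.35 to 4.46%), and 2 of the 105 elements with 98% identity or more (1.90%, 0.524 to 6.68%, which holds the share of the whole class). These 2 are named after their values had been seen. One, of 107 bp, is in an intron of *Rabepk* and the other, of 115 bp, is 46716 bp from *Tmco5*. The consensus has 1 undefined base that counted as a mismatch, so a copy that covers it cannot reach 100% identity. Elements with 98% identity or more had a median aligned length of 120 bp, against 140 bp for all near-consensus elements.

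The DpnII fragment in which an element lies went along with its share in peaks. A DpnII fragment is the stretch between neighbouring GATC sites, and every one of the 474 peaks began and ended 2 bases into a GATC. Near-consensus elements in peaks lay on fragments with a median length of 1234 bp (95% interval of the median 1167 to 1326 bp), and those outside peaks on fragments of 828 bp (818 to 838 bp). When near-consensus elements were sorted by this length into 4 equal groups, a peak was present at 0.943% of those on fragments up to 538 bp, 1.89% up to 840 bp, 3.81% up to 1264 bp and 6.29% on longer ones. Elements below 95% identity showed the same order, with 1.00%, 1.81%, 2.88% and 5.85% on the same lengths of fragment. For fragments of 841 to 1264 bp the intervals of near-consensus elements (3.24 to 4.48%) and of the others (2.74 to 3.02%) did not overlap, but the class from 90 to 95% identity (3.32%, 3.10 to 3.57%) overlapped with the near-consensus class on fragments of every length. More diverged elements lay on shorter fragments, with a median of 563 bp under 80% identity and 840 bp at 95% or more. On the longest fragments the order above and below 90% identity stayed, with 6.73% (6.42 to 7.06%) from 90 to 95%, 5.00% from 85 to 90%, 5.57% from 80 to 85% and 4.94% under 80%. On the shortest it was absent, with 0.985%, 0.962%, 1.22% and 0.904%.

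The member peaks were longer than peaks without a B1 SINE, and the order of the median signal values of these 2 groups turned when peaks of like length were compared. Their length ranged from 475 to 15682 bp with a median of 2074.5 bp (1969 to 2211 bp). Peaks whose B1 SINEs all fell short of the limits, 4499 in number, had a median of 2008 bp (1966 to 2054 bp), and the 10146 peaks without a B1 SINE had one of 1676 bp (1654 to 1697 bp). The rule itself favours long peaks, which hold more sequence, and the intervals of the first and second of these medians overlap. One DpnII fragment made up 216 of the member peaks (45.6%), 2 fragments made up 93 (19.6%) and 3 or more made up 165 (34.8%). A single fragment made up 46.7% (45.2 to 48.2%) of peaks with other B1 SINEs and 60.1% (59.2 to 61.1%) of peaks without one. The signal value of the authors' peak caller compares Dam-ZFP266 with Dam only. The methods give a log2 fold change above 1 and a false discovery rate under 0.05 as example limits, but the list does not say whether its signal value is that fold change. The signal value had a median of 0.858 (0.835 to 0.890) in member peaks. It was 0.893 (0.886 to 0.902) in peaks with other B1 SINEs and 0.901 (0.895 to 0.906) in peaks without one. The signal value was lower in longer peaks, with a Spearman rho of -0.43 between length and signal over the 474 member peaks, which is a description across regions. When all peaks were sorted by length into 4 equal groups, the medians of the longest group, from 2571 bp, were 0.755 (0.689 to 0.781), 0.753 (0.739 to 0.767) and 0.749 (0.734 to 0.759) in the same order. From 1778 bp they were 0.859 (0.800 to 0.919), 0.874 (0.861 to 0.890) and 0.854 (0.842 to 0.866), and from 1180 bp 0.985 (0.920 to 1.04), 0.966 (0.946 to 0.989) and 0.930 (0.921 to 0.942). In the shortest group, up to 1179 bp, they were 0.994 (0.939 to 1.01), 1.02 (1.01 to 1.04) and 0.987 (0.978 to 0.994). The median of member peaks was above that of peaks without a B1 SINE in each group, and the intervals of these 2 overlap in each.

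By the q-value, member peaks were close to peaks with other B1 SINEs. The median -log10 q was 1.38 (1.35 to 1.42) in member peaks, 1.37 (1.36 to 1.39) in peaks with other B1 SINEs and 1.30 (1.29 to 1.31) in peaks without one. In each of the 4 groups by length, the intervals of member peaks and of peaks without a B1 SINE overlap, with medians of 1.27 and 1.25 in the shortest and 1.46 and 1.38 in the longest. A q under 0.05 was reached by 267 member peaks (56.3%, 51.8 to 60.7%), by 57.3% (55.9 to 58.7%) of peaks with other B1 SINEs and by 50.2% (49.2 to 51.1%) of peaks without one. A signal value above 1 as well was found in 118 member peaks (24.9%) and in 3986 of all peaks (26.4%). The score, which ends at 1000, was at its limit in 41 member peaks (8.65%, 6.44 to 11.5%), in 387 peaks with other B1 SINEs (8.60%, 7.82 to 9.46%) and in 518 peaks without one (5.11%, 4.69 to 5.55%).

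Nearly every member peak held a single near-consensus element, placed anywhere along it. One such element was present in 469 peaks and 2 in the other 5. A B1 SINE below the limits was present as well in 219 member peaks. The whole element lay in the peak for 457 of the 479 elements (95.4%, 93.1 to 96.9%). Along the peak from its lower to its higher coordinate, the 5 equal parts held the midpoints of 101, 81, 99, 104 and 94 elements, counting those past an edge with the nearest part. The element midpoint was a median of 475 bp from the peak midpoint and 458 bp from the nearer edge. To the nearest GATC it was 291 bp (264 to 316 bp) in peaks and 217 bp (214 to 221 bp) outside them.

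The consensus has 145 bp, with an undefined base at position 89 that counted as a mismatch. It was read by eye from a figure, and every identity and the choice of members rest on that reading. All bases before its tail of 10 A were then taken from the 1 copy in GRCm38 that matches them exactly, with the undefined base then set back to n and the tail added, and 0 copies match the whole. The B box word GTTCGANNC lies at positions 66 to 74.

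For full length, the B box word and the CpG sites, the intervals of elements in peaks and outside them overlap, and no test of equality was made. An alignment that began by position 3 and reached to within 2 bases of the tail was found for 262 of the 479 elements in peaks (54.7%, 50.2 to 59.1%) and for 55.9% of the 14336 outside. The B box word was intact in 342 (71.4%, 67.2 to 75.3%) and in 74.2% (73.5 to 74.9%) outside. The consensus holds 6 CpG sites, at positions 3, 15, 19, 55, 69 and 134. The CpG at position 55 was kept least often, in 268 of 476 aligned elements in peaks (56.3%, 51.8 to 60.7%), and the one at position 3 was kept in 208 of 273 (76.2%, 70.8 to 80.9%). Outside peaks these shares were 56.9% and 76.1%. Methylated CpG mutates readily to TpG or, read on the other strand, to CpA. Of the 2061 substitutions in elements in peaks, 687 (33.3%, 31.3 to 35.4%) removed a CpG by such a change, as did 34.2% (33.8 to 34.6%) outside.

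The 2 single substitutions met most often made a CpG that the consensus lacks, although more substitutions removed one. Of the 2061 in elements in peaks, 360 (17.5%, 15.9 to 19.2%) made a CpG and 785 (38.1%, 36.0 to 40.2%) removed one. Positions are counted from 1 at the 5′ end of the consensus, with the consensus base first. A8G was present in 172 of the 299 elements in peaks that cover it (57.5%) and in 52.8% outside, and their intervals overlap. T38C was present in 141 of 458 (30.8%, 26.7 to 35.2%) and in 31.1% outside. The next were C116T in 27.3%, G56A in 22.5% and G16A in 22.3% of the elements in peaks. Among the 20 substitutions most frequent in peaks, the intervals lay apart for G16A, at 18.5 to 26.6% in peaks and 16.4 to 17.8% outside, and for C55T, at 16.4% in peaks and 20.7% (20.1 to 21.4%) outside, with no test and in opposite directions. At the undefined position, N89A was read in 224 of 474 elements in peaks (47.3%) and N89G in 248 (52.3%, 47.8 to 56.8%), against 49.4% and 49.3% (48.5 to 50.1%) outside.

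A8G makes a KLF word in an element that otherwise keeps the consensus there, since position 8 lies inside the word. The words searched on both strands were CCACACCC, CCACGCCC, CCCCACCC and CCCCGCCC, which match the core bound by KLF factors. Such a word was found in 132 elements in peaks (27.6%, 23.7 to 31.7%) and in 26.6% outside. CCACGCCC made up 121 of the 132 and CCACACCC 11. Over the whole peak, a KLF word was present in 323 member peaks (68.1%, 63.8 to 72.2%), in 51.1% of peaks with other B1 SINEs and in 36.6% of peaks without one. With the near-consensus elements masked, 257 member peaks (54.2%, 49.7 to 58.7%) still held one, an interval that overlaps with that of peaks with other B1 SINEs (49.7 to 52.6%). Peaks without a B1 SINE are shorter, and the KLF shares were not read by length. The SOX word CCATTGT was in 0 of the 479 elements (Wilson interval up to 0.796%) and in 114 member peaks (24.1%, 20.4 to 28.1%), against 25.4% of all peaks.

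An AP-1 core motif was no more common in member peaks than in peaks at large. AP-1 is a dimer of FOS and JUN proteins, and its core reads TGACTCA or TGAGTCA. It occurred in 199 member peaks (42.0%, 37.6 to 46.5%), in 44.2% of all peaks and in 44.4% of peaks without a B1 SINE. Because member peaks are long, the share was also read by length. In the shortest of the 4 groups, 11 of 86 member peaks held the motif (12.8%, 7.29 to 21.5%), against 26.1% (23.2 to 29.1%) of peaks with other B1 SINEs and 29.5% (27.8 to 31.2%) of peaks without one. In the longest it was 109 of 185 (58.9%, 51.7 to 65.8%), against 64.3% (61.8 to 66.7%) and 66.3% (64.2 to 68.2%). In the 2 groups between, member peaks had the motif in 30.9% and 45.9%, peaks with other B1 SINEs in 30.3% and 44.5%, and peaks without one in 39.8% and 47.4%. The interval of member peaks lay below the others in the shortest group only. Where member peaks had the motif, its middle was a median of 755 bp from the nearer end of the element, and within 500 bp in 81 of 199 (40.7%, 34.1 to 47.6%). The motif lay inside the element itself in 1 case, in an intron of *Chchd2*, named after its value had been seen.

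Around the elements themselves, AP-1 motifs were more frequent in peaks than outside. Within 500 bp on either side, 98 of the 479 elements in peaks had one (20.5%, 17.1 to 24.3%) and 2178 of the 14336 outside (15.2%, 14.6 to 15.8%). A KLF word was found in these flanks for 30.3% (26.3 to 34.5%) in peaks and 23.4% (22.7 to 24.1%) outside, and a SOX word for 10.2% (7.82 to 13.3%) in peaks, with an interval of 11.5 to 12.5% outside. The flanks of elements in peaks had a median GC content of 43.3% (42.8 to 43.7%), and those outside 42.3% (42.2 to 42.4%). In 4 groups of equal size by GC content, AP-1 was present in 18.9%, 22.3%, 22.5% and 18.2% of elements in peaks and in 12.7%, 14.5%, 17.5% and 16.1% outside. The share was higher in peaks in each of the 4 groups, and the intervals overlap in each. By DpnII fragment, the share was 13 of 35 (37.1%, 23.2 to 53.7%) on the shortest fragments against 14.9% outside, and 41 of 233 (17.6%, 13.2 to 23.0%) on the longest against 15.2%. Read from the motif, 3.04% (2.75 to 3.35%) of near-consensus elements with 0 AP-1 motifs in the flanks lay in a peak, and 4.21% (3.42 to 5.16%) of those with 1.

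Few short stretches of a near-consensus element occur only once in the genome. Of all stretches of 40 bases in an element, the median share that occurs once in GRCm38 was 0% in peaks, and 347 of the 479 elements in peaks (72.4%, 68.3 to 76.3%) had 0 such stretches. Outside peaks 76.5% (75.8 to 77.2%) had 0. With 80 bases the median was 17.4% (12.1 to 21.2%) in peaks and 12.1% (11.8 to 12.7%) outside. The peaks end at GATC sites and give no position within a fragment, and the reference is of strain C57BL/6J, so a copy that is absent from or different in strain 129 would not be seen.

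The member peaks lay mostly in introns and between genes. By the curated RefSeq transcripts, the midpoint was in an intron for 237 of the 474 (interval 45.5 to 54.5%), between genes for 211 (44.5%, 40.1 to 49.0%), in a promoter (1000 bp before to 100 bp after a start) for 13 (2.74%, 1.61 to 4.64%), in an exon for 7 and around a transcript end for 6. Introns held 48.0% (46.5 to 49.4%) of peaks with other B1 SINEs and 44.1% (43.1 to 45.1%) of peaks without one. Between genes lay 46.3% (44.8 to 47.8%) and 50.6% (49.7 to 51.6%) of them, and in a promoter 2.40% (1.99 to 2.89%) and 2.26% (1.99 to 2.56%). The midpoint of the near-consensus elements was intronic for 50.7% (46.3 to 55.2%) in peaks and 52.1% (51.3 to 52.9%) outside. Of the 243 intronic elements in peaks, 95 (39.1%, 33.2 to 45.4%) ran on the strand of the gene, and outside peaks 43.6% (42.5 to 44.7%) did. By chromosome strand, 255 of the 479 (53.2%, 48.8 to 57.7%) were on the plus strand. An exon was touched by 2 elements, named after their values had been seen: one in the 3′ UTR of *Hyal3* and one in a non-coding exon at *Sart1*.

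The X chromosome had fewer near-consensus elements in peaks than the autosomes. On X, 6 of 673 lay in a peak (0.892%, 0.409 to 1.93%), and on the autosomes 473 of 14135 (3.35%, 3.06 to 3.66%). B1 SINEs below the limits differed in the same direction, with 0.893% (0.749 to 1.06%) on X and 2.64% (2.58 to 2.71%) on the autosomes. The fragments were of like length, with a median of 852 bp for near-consensus elements on X and 840 bp on the autosomes. The sex of the embryos is not given in the sources used here.

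The member peaks of highest signal value lay mostly between genes. The first is chr10:77195940-77198094, with a signal value of 2.08 and a -log10 q of 5.26, 29410 bp from *Col18a1*, which encodes a basement membrane collagen. The next is chr9:78522220-78524294, with a signal value of 2.05, 12193 bp from *Slc17a5*, which encodes the lysosomal sialic acid transporter. Then came chr7:141005155-141008724, with a signal value of 1.81, 866 bp from *Ifitm3*, an interferon-induced gene that restricts virus entry. An intron of *Kdm6a*, which encodes a histone H3 lysine demethylase, held the peak at chrX:18169154-18170491 with a signal value of 1.71. The remaining 6 were within 10 kb of *Myef2*, *Csnk1a1* and *Rere*, 239251 bp from *Dok5* and in introns of *Ppp6r3* and *Dysf*, with signal values from 1.52 to 1.62. Near *Rere* the element, chr4:150274048-150274190, lay only partly in the peak, chr4:150274166-150275168. The peaks in *Kdm6a* and near *Myef2*, with a -log10 q of 1.17 and 1.23, did not reach a q under 0.05. The other peaks of highest signal value named in this paragraph did. At the other end, the lowest value was 0.352, in an intron of *Zfp874b*. The 4 above it, up to 0.380, were in introns of *Pds5a*, a cohesin regulator, of *Rbm47* and of *Hk1*, a hexokinase, and 2559 bp from *Cspg4*. The longest member peak, 15682 bp in *Ttc34*, had a signal value of 0.876, and the shortest, 475 bp in *F3*, which encodes tissue factor, had 0.983.

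The 13 member peaks at promoters had signal values from 0.449 to 1.16. The highest was at the non-coding gene *4930505K14Rik*, followed by *Ttll13*, *Vat1* and *Sart1*. The others were at *Ccdc58*, *Uck2*, *Snx3*, *Zkscan5*, *Dcaf13*, *Mir7228*, *Chd1*, *Vps35* and *Stag3*. Among them *Chd1* encodes a chromatin remodeller with 0.592, *Vps35* a subunit of the retromer with 0.548, *Stag3* a cohesin subunit of meiosis with 0.449 and *Zkscan5* a zinc finger protein with 0.820. The peaks at *Vat1*, *Uck2*, *Snx3*, *Chd1*, *Vps35* and *Stag3*, with a -log10 q from 1.01 to 1.28, did not reach a q under 0.05. At *Chd1* the element, chr17:15703627-15703758, lay only partly in the peak, chr17:15703740-15704354.

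Few genes of the lists had a member peak in the gene or within 10 kb. Of the 21000 protein-coding genes of the annotation, 448 (2.13%) had one. Among 15 pluripotency genes it was 1, *Nanog* (6.67%, 1.19 to 29.8%), a share whose interval holds that of all genes. The peak, at chr6:122699429-122700954, lay between genes, 6535 bp from *Nanog*. It had a signal value of 1.01 and held an element of 102 bp with 96.1% identity. The count was 0 for the 12 genes of the AP-1 family, the 14 of the KRAB corepressor complex and the 21 fibroblast genes, and the Wilson intervals of lists of this size reach to 24.2%, 21.5% and 15.5%. Of the 403 genes named Zfp, 12 had one, at 11 peaks (2.98%, 1.71 to 5.13%), a share whose interval holds that of all genes. Within the gene these were *Zfp143*, *Zfp146*, *Zfp385b*, *Zfp451*, *Zfp874b*, *Zfp941* and *Zfp949*, and within 10 kb *Zfp113*, *Zfp382*, *Zfp568*, *Zfp58* and *Zfp810*. The highest signal value among them was 1.38, at an exon of *Zfp949*. Of the 5 peaks over *Zfp266* itself, whose high signal the paper puts down to the Dam-ZFP266 plasmid, 0 held a near-consensus element.

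The elements closest to the consensus were not in the peaks of highest signal value. The 5 of highest identity over at least 130 bp, from 97.8 to 97.9%, lay 179612 bp from *Crbn* and in introns of *Niban1*, *Akap1*, *Tjap1* and *Dusp16*. Their peaks had signal values of 0.725, 0.855, 0.988, 0.784 and 0.997 in this order, with the median of all member peaks lying among them. The next 5, from 97.3 to 97.8%, were in introns of *Tent2*, *Hspbap1* and *Plekhh2*, at an exon of *Rnd1* and 36084 bp from *Atp5o*. Those peaks had signal values of 1.16, 1.05, 0.689, 1.12 and 0.653 in this order. Of the 5 member peaks of highest signal value, the one near *Ifitm3* held an AP-1 core motif, 2352 bp from the element, and the other 4 held 0.

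Among the peaks of the 10 highest signal values and those of the 10 elements of highest identity over at least 130 bp, the closest AP-1 core motif was 25 bp from the element, in intron 1 of *Dysf*, counted from the middle of the motif to the nearer end of the element. The motif is in capitals with 12 bases to each side on the plus strand, to show it in its setting.
Dysf, chr6:84012647-84012677: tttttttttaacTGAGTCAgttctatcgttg
Plekhh2, chr17:84522421-84522451: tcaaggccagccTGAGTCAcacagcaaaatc
Crbn, chr6:106980604-106980634: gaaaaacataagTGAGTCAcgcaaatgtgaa
In *Plekhh2* the motif was 207 bp from the element, and in the peak named by *Crbn*, 179612 bp from that gene, it was 333 bp. The 12 bases before the motif in *Plekhh2* match a stretch of the consensus except for 1 base. That peak held 2 B1 SINEs, of which 1 was near-consensus, and whether the motif lies in the other was not tested.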

How the data were processed

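DamID-seq libraries of 10 MEF samples, 5 Dam only and 5 Dam-ZFP266, entered 1 deposited list of peaks. The authors trimmed reads with cutadapt, aligned them to GRCm38.p6 with BWA, counted them per DpnII fragment and called peaks with Daim; versions are not given in the sources used here. Per peak it gives the score and signal value of the authors' peak caller, and the authors' -log10 p-value and -log10 q-value.

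B1 SINEs were located in GRCm38 with blastn 2.17.0 (e-value limit 10), keeping the best hit by bit score where hits overlapped on a strand. Genes came from 45756 curated RefSeq transcripts, and the GENCODE basic set was an alternative. Shares have Wilson 95% intervals and medians order-statistic 95% intervals; no test was made. The steps were tested on simulated sequence, with planted copies that carried substitutions only and a consensus whose undefined base was filled. The identity limit with that base counted as a mismatch was not tested in this way. Python 3.11.15, numpy 2.4.6, pandas 2.3.3, scipy 1.17.1 and numba 0.67.0 were used.

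Genes named are those at the 10 member peaks of highest and 5 of lowest signal value, the longest and shortest, the 10 of highest identity over at least 130 bp, those at promoters, those of the gene lists, and those at elements of 98% identity or more, touching an exon or holding an AP-1 motif. The members and lists were chosen with earlier results of these data known. The groups by GC content, fragment length and number of AP-1 motifs, the comparison of X with autosomes, the base at position 8, the kinds of substitution and the shares by steps of 1% identity were added after values had been seen. The read coverage was not analysed here.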

Additional observations from a re-analysis of the deposited data

How the results depend on the processing

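Of 75 values recomputed under other settings, 59 stayed within the 95% interval of the main value or, for counts, within 1.5 times, and 16 moved. With an identity minimum of 93% there were 1645 member peaks and 1792 elements, and the median share of 40-base stretches occurring once was 1.18%. With 97% there were 38 member peaks and 38 elements, the median length was 1789.5 bp, and 42.1% of the elements were on the plus strand. Restricted to peaks with q under 0.05 and a signal value above 1, there were 118 member peaks and 118 elements, 0.796% of near-consensus elements lay in a peak, the median length was 1677.5 bp and the median signal value 1.19, and 35.6% of the member peaks had an AP-1 motif and 41.5% an intronic midpoint. By construction these settings change the number of elements or peaks, and the last one the signal value, on which it selects. An AP-1 motif within 500 bp of an element, also past the edge of the peak, was found for 20.5% of member peaks, a different measure from a motif in the peak. With stretches of 80 bases the share occurring once was 17.4%. Filling the undefined base gave 20776 near-consensus elements in the genome and 658 member peaks. No paired analysis was made because the list used here pools all samples and no result comes from a test. For the same reason no replicate was left out, and the unknown depth sets no stated limit.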
